A study of Mus musculus with 6 samples.

Results

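*Sumo2* encodes a small protein, SUMO2, that cells attach to other proteins as a reversible tag. In mouse testes taken whole at 5 days postpartum (dpp), *Sumo2* averaged 97.7 ± 6.24 FPKM (fragments per unit of gene length and of sequencing depth, mean ± SD, n = 3) in Ctrl and 43.0 ± 6.77 FPKM (n = 3) in cKO. A processed pseudogene with the same coding letters, *Gm10241*, moved the other way, from 150.5 ± 25.7 to 312 ± 17.0 FPKM, so the reads counted to *Sumo2* and to this copy are described together below. The genes examined were 8 members of the SUMO pathway among the 54532 genes of the table. They comprise *Sumo2* and *Sumo3*, the activating enzyme genes *Sae1* and *Uba2*, the ligase genes *Pias1* and *Pias2* and the protease genes *Senp1* and *Senp2*, and were chosen by gene symbol. *Sumo2* was chosen for its fall between these same samples, so its difference is given as a description with no test, and so is that of *Gm10241*, which can share its reads. In the GRCm38 annotation *Sumo3* lies on chromosome 10, *Sae1* and *Uba2* on chromosome 7, *Pias1* on chromosome 9, *Pias2* on chromosome 18, *Senp1* on chromosome 15 and *Senp2* on chromosome 16.

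The study removed the splicing factor gene *Srsf1* from germ cells. The 6 samples were testes of 5 dpp mice, 3 labelled Ctrl and 3 labelled cKO - Srsf1. Per the study, cKO males carried a *Vasa*-Cre transgene, which acts in germ cells, with 1 floxed and 1 deleted *Srsf1* allele (Fl/del), and Cre removes exons 2 to 4. The labels give no genotype for Ctrl beyond that name. Whole testes were sequenced, so the libraries also hold RNA of somatic cells, in which *Vasa*-Cre does not act. Whether somatic cells of cKO males also carried the deleted allele is not stated in the sources used here. The libraries held 15448191 to 18964743 reads counted to genes, and none of the replicate pairs agreed within sampling noise. *Srsf1* measured 82.1, 89.1 and 88.4 FPKM across the Ctrl samples against 45.1, 46.3 and 51.6 FPKM across the cKO samples, lower in every cKO sample, which fits the labels (log2 fold change -0.85, SE 0.0870, limma adjusted p = 0.0578). The extraction note of the labels mentions retinas, but the 8 photoreceptor markers summed to 0.322 to 0.905 FPKM in each sample, 2 of them at 0 in all samples, while the Sertoli-cell markers summed to 2494 to 3710 FPKM.

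SUMO proteins are joined to lysines of target proteins by a cascade that resembles ubiquitination. The dimer of SAE1 and UBA2 (the E1) activates SUMO, an E2 enzyme carries it, ligases such as the PIAS proteins speed its transfer, and SENP proteases mature SUMO and take it off again. SUMO2 and SUMO3 are near-identical and form chains. In the testis, SUMO conjugates are known from the sex body and the synaptonemal complex of meiotic spermatocytes, stages that a 5 dpp testis has not reached.

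*Sumo2* (ENSMUSG00000020738) occupies chr11:115523102-115536276 on the minus strand of GRCm38. Its transcript *Sumo2*-207 has 4 exons and 1051 bases, of which 288, the stop codon included, are coding. Genes that left spliced copies in the genome can lose or gain counts through them, so the coding sequence is shown with its relatives, read from the GENCODE M21 transcripts. In the first line, capitals mark the last base of one exon and the first base of the next at the 3 exon junctions. In the second, the copy *Smt3h2-ps4* (chr1:14839869-14840156, minus strand), the capital marks its only difference from the line above.

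*Sumo2* coding sequence: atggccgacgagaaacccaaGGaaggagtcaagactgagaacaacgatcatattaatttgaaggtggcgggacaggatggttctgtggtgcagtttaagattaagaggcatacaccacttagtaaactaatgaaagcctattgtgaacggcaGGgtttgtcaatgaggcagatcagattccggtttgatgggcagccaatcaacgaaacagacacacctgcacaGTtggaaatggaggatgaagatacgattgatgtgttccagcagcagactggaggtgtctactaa

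*Smt3h2-ps4*: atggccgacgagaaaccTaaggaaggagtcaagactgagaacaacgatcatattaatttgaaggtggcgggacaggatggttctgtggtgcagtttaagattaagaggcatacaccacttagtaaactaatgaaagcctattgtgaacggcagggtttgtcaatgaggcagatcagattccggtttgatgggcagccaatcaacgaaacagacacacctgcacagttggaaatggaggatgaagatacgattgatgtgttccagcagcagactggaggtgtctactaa

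*Gm10241* (ENSMUSG00000084838), at chr16:20176727-20177012 on the minus strand, is 286 bases long and was identical to the first 286 bases of the *Sumo2* line at every position, with no junction interrupting it. It lies in an intron of *Yeats2*, a gene on the opposite strand, between exons that end at 20174539 and start at 20179501. The identical stretch makes up 27.2% of *Sumo2*-207. *Smt3h2-ps4* matched over 287 of 288 bases, the difference being C18T, counted from 1 at the A of the start codon. In all, 11 pseudogenes in the table shared at least 1 stretch of 50 bases with *Sumo2*, and 19.2% of the 1814 distinct 50-base stretches of *Sumo2* transcripts also occurred in some other gene. That share was 8.70% for *Sumo3*, 4.51% for *Senp1*, 3.61% for *Senp2*, 2.34% for *Uba2* and 0.418% for *Pias2*, and no such stretch was found for *Sae1* or *Pias1*.

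**Figure D1:**
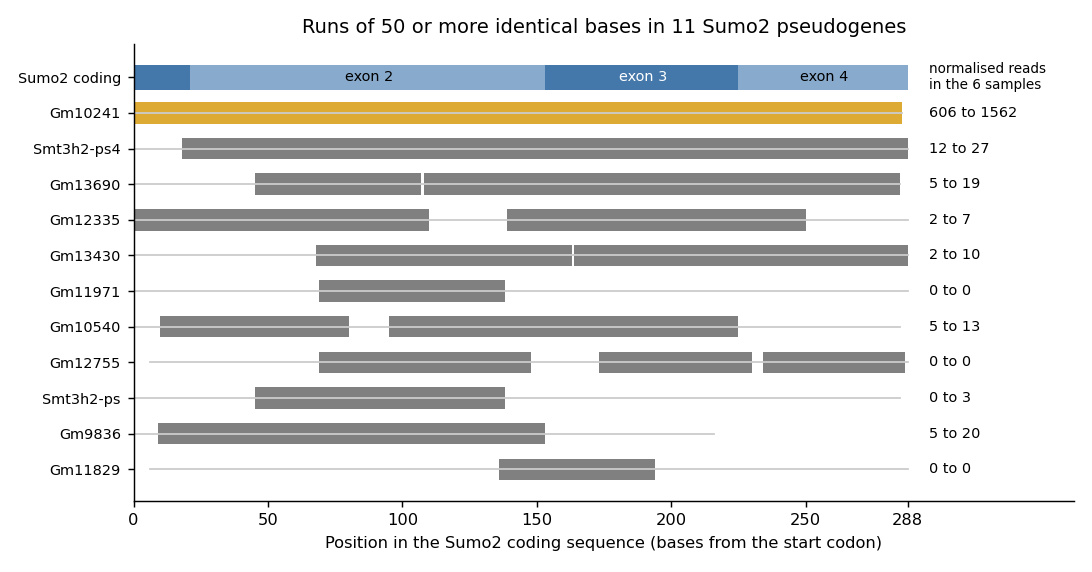
Map of the *Sumo2* coding sequence (x axis, bases from the start codon) with its exons in blue and, below it, 11 pseudogenes. Bars are runs of at least 50 identical bases in an ungapped placement (thin lines show the compared span), and the numbers at the right are the lowest and highest normalised reads of the 6 samples. *Gm10241* matches along 286 bases and has 606 to 1562 normalised reads, whereas no other pseudogene exceeds 26.7.

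The closest functional relative, *Sumo3*, is well separated from *Sumo2* at the level of bases. Exon 3 of *Sumo2* (chr11:115530346-115530417) and the matching stretch of *Sumo3*, its coding bases 151 to 222, are shown because they are the same length and differ at 9 of 72 positions, marked by capitals.

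*Sumo2* exon 3: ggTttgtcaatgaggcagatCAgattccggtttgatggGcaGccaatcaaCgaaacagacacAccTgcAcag

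*Sumo3* matching stretch: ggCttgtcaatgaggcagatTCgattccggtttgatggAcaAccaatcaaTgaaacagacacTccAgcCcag

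The longest run of identical bases between the *Sumo2* and *Sumo3* coding sequences was 17. A read of 150 bases from the *Sumo3* coding sequence therefore held differences from *Sumo2*, unlike a read from within *Gm10241*.

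*Sumo2* measured 91.1, 98.7 and 103.4 FPKM across the Ctrl samples. The cKO samples gave 49.1, 35.7 and 44.3 FPKM. The groups were far from overlapping, and the cKO mean was 44.0% of the Ctrl mean (log2 fold change -1.18, computed on log2(FPKM + 1), SE 0.127). Behind these levels stood 1035 to 3263 reads per sample. In bulk tissue a lower level can come from fewer cells of a type or from less RNA per cell, and here these cannot be told apart. Reads counted to *Gm10241* in place of *Sumo2* could also lower it, which was not tested.

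*Gm10241* measured 144.5, 178.7 and 128.4 FPKM across the Ctrl samples. The cKO samples gave 307, 331 and 298 FPKM, so that every cKO sample stood above every Ctrl sample (log2 fold change 1.06, SE 0.135). Its host *Yeats2*, named for its position alone, averaged 7.79 ± 0.854 FPKM over Ctrl and 7.96 ± 0.590 FPKM over cKO (log2 fold change 0.03, SE 0.103, adjusted p = 0.912), with groups that overlapped.

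Set on 1 scale, as reads divided by each library's size factor (normalised reads), the loss of reads at *Sumo2* was larger than the gain at its copy. *Sumo2* had 2611, 2830 and 2966 normalised reads across the Ctrl samples and 1406, 1023 and 1270 across the cKO samples. *Gm10241* had 683, 844 and 606 across Ctrl and 1451, 1562 and 1407 across cKO. The cKO minus Ctrl difference of means was -1569 normalised reads for *Sumo2* and 762 for *Gm10241*. Of the reads counted to either locus, *Gm10241* held 20.2 ± 3.03% in Ctrl and 54.6 ± 5.13% in cKO, a share that did not overlap between the groups.

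The sum of the 2 loci was 3294, 3674 and 3572 normalised reads across the Ctrl samples and 2857, 2586 and 2677 across the cKO samples. The groups still did not overlap, with a cKO mean at 77.0% of Ctrl. When the reads of *Gm10241* were added to *Sumo2* before fitting, the log2 fold change of *Sumo2* was -0.37 (SE 0.0867), against -1.18 from *Sumo2* alone. The size of the *Sumo2* difference thus depended on whether the reads of the copy were counted with it. From which locus those reads came was not tested, since the table holds gene totals only.

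**Figure D2:**
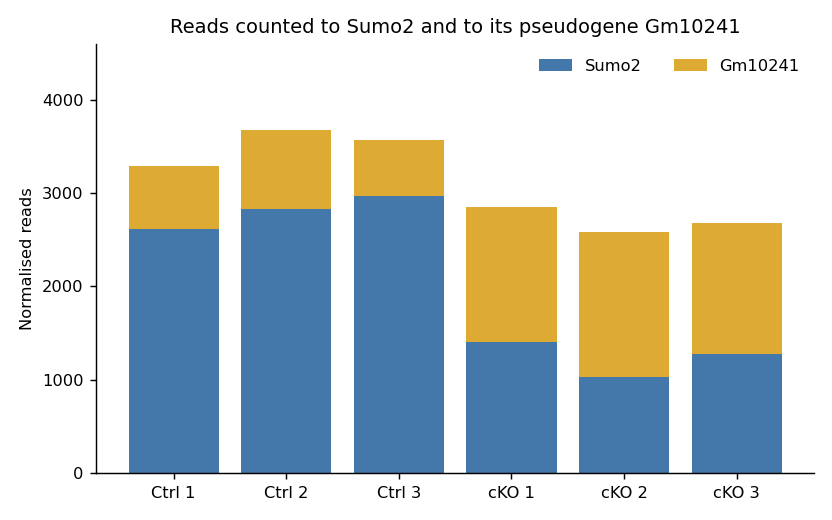
Normalised reads (y axis) counted to *Sumo2* (blue) and to *Gm10241* (yellow), stacked for each of the 6 samples. The blue part falls from 2611 to 2966 in Ctrl to 1023 to 1406 in cKO, the yellow part is 606 to 844 and 1407 to 1562, and the stacked sum is 3294 to 3674 and 2586 to 2857.

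The other pseudogenes with *Sumo2* letters did not collect reads in this way. Of the 10 besides *Gm10241*, 3 had no read in any sample and none had more than 27 reads in a sample. *Smt3h2-ps4*, which differs at 1 base, had 14.3, 17.3 and 20.9 normalised reads across Ctrl and 11.5, 26.7 and 26.7 across cKO, with groups that overlapped.

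Among the genes beside *Sumo2* on chromosome 11, none passed the test. Of 10 protein-coding genes reported within 100 kb, 8 passed the filter on low values (a mean of 0.5 FPKM over the 6 samples), and in all 8 the groups overlapped. Over all tested genes 0% passed, and groups did not overlap in 12.8% with lower and 10.3% with higher values in cKO, and nothing is read from 0 among 8 genes. Their log2 fold changes ran from -0.20 to 0.18 with a median of 0.04, and their smallest p was 0.116 unadjusted and 0.431 adjusted. The lowest was *Jpt1*, averaging 129.6 ± 8.21 FPKM over Ctrl and 112.9 ± 14.4 FPKM over cKO, and the nuclear pore gene *Nup85* was at 28.9 ± 2.70 and 26.3 ± 2.94 FPKM. The other tested neighbours were *Kctd2*, *Armc7*, *Nt5c*, *Gga3*, *Mrps7* and *Mif4gd*, and *Trim80* and *Slc16a5* were below the filter. *Srsf1* lies on the same chromosome, 27.5 Mb away.

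The pattern of *Sumo2* as counted was nearest to that of *Srsf1* over the 6 samples, a rank that depended on leaving out the reads of *Gm10241*. Likeness was the root mean square difference of log2(FPKM + 1) after subtracting each gene's own mean, over 5464 protein-coding genes averaging 10 FPKM or more. *Srsf1* had a difference of 0.219 on this log2 scale, followed by *Akr1b3* (aldose reductase, 0.306), *Tubb4b* (a beta-tubulin, 0.312), *Phgdh* (the first enzyme of serine synthesis, 0.320) and *Nup93* (a nuclear pore scaffold protein, 0.320). All 5 had lower values in every cKO sample than in any Ctrl sample, which the choice by likeness makes likely. Of the other members the nearest was *Sae1* (0.458), and 274 genes were closer to *Sumo2* than it was. With the reads of *Gm10241* added to *Sumo2*, *Srsf1* had a difference of 0.252, against 0.219 as counted. The difference thus changed little, but 3333 genes were closer than *Srsf1* was. The nearest of the other members was then *Uba2* (0.119, with 254 genes closer), ahead of *Sae1* (0.157, with 900 closer). The measure was not scaled for the size of a change, so being nearest in part restates the fall for which *Sumo2* was chosen.

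The next question was whether the other SUMO genes moved with *Sumo2*, and none of the 7 passed the test. *Sumo2* itself had a log2 fold change of -1.18 as counted and -0.37 with the reads of *Gm10241* added. How far it stood from the 7 thus depended on those reads. Under limma across the 16206 tested genes, 0 of the 7 passed an adjusted p of 0.05, and neither did any gene of the whole table (0%). Since no gene passed, this count could not set the 7 apart from other genes. The study's own test of read counts (DESeq2) did call genes lower and higher in cKO at an adjusted p of 0.05. At an unadjusted p under 0.05, 1 of the 7 was lower in cKO and 0 higher, against 9.31% and 6.60% of all tested genes. In limma's voom fit of the recovered reads, 0 of the 7 passed, against 0.494% of all genes. In 2 of the 7 the groups did not overlap, both lower in cKO, against 12.8% of all tested genes lower and 10.3% higher. The median log2 fold change of the 7 was -0.06 and that of all tested genes 0.00. All 7 estimates were below 0, as were 8026 of the 16206 tested genes, and those of *Pias2* and *Senp2* changed sign in some alternatives.

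**Figure D3:**
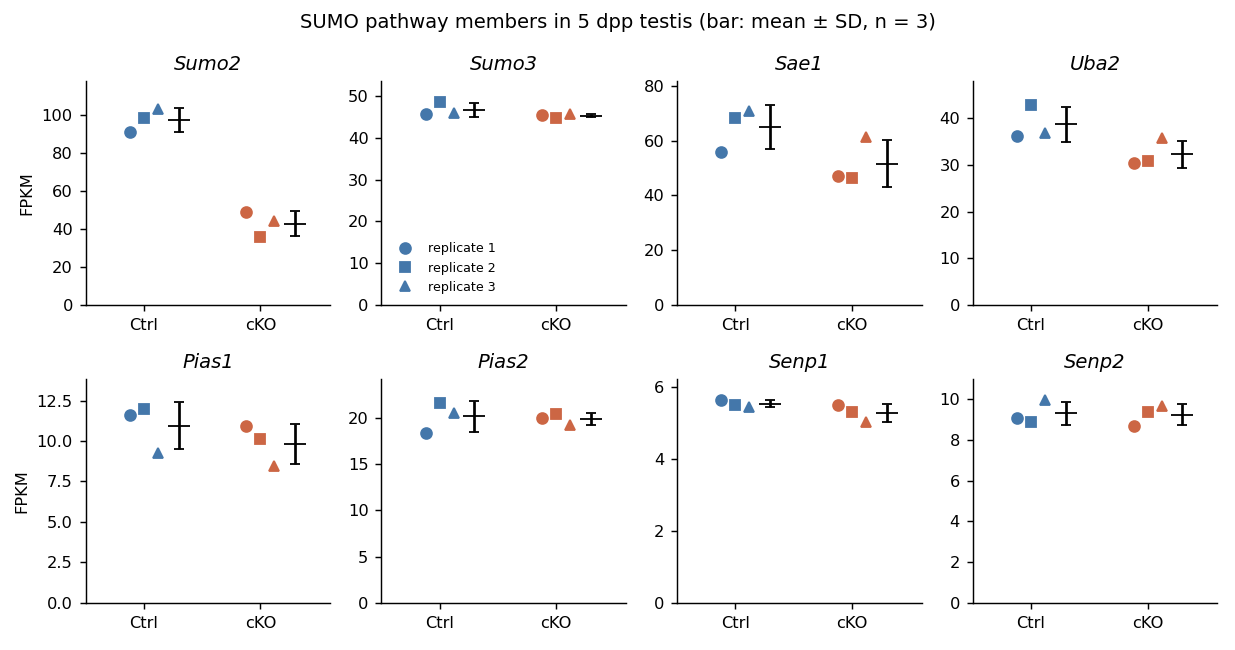
FPKM (y axis, from 0) of the 8 members in Ctrl (blue) and cKO (orange), with 1 point a sample shaped by replicate number and a bar for mean ± SD (n = 3). *Sumo2* has clearly separate groups, *Sae1* and *Uba2* lie somewhat lower in cKO (means at 79.7% and 83.6% of Ctrl), and *Sumo3*, *Pias2* and *Senp2* stay within 3.0% of the Ctrl mean.

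*Sumo3*, whose product shares the work of SUMO2, measured 45.6, 48.5 and 45.9 FPKM across the Ctrl samples. The cKO samples gave 45.4, 44.8 and 45.6 FPKM. The cKO values all lay below the Ctrl values, but the highest cKO and lowest Ctrl sample were almost level, and the log2 fold change was -0.04 (95% interval -0.21 to 0.13, adjusted p = 0.809). The interval leaves out a change in *Sumo3* of the size seen in *Sumo2*, in either direction.

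The balance between *Sumo2* and *Sumo3* differed between the groups. On the per-length scale, the ratio of *Sumo2* to *Sumo3* FPKM was 1.995, 2.035 and 2.256 across the Ctrl samples and 1.08, 0.797 and 0.972 across the cKO samples. *Sumo2* was thus the more abundant in every Ctrl sample, and the pair stood near level in cKO, with *Sumo3* above *Sumo2* in cKO 2 and cKO 3. The mean ratio was 2.10 ± 0.140 in Ctrl and 0.950 ± 0.143 in cKO. With the *Gm10241* reads added to *Sumo2*, it was 2.63 ± 0.101 in Ctrl and 2.09 ± 0.0958 in cKO, so that *Sumo2* stayed above *Sumo3* in all 6 samples. The shift rests on *Sumo2*, whose choice used this contrast, and carries no test.

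Among the members, the genes of the activating enzyme had the lowest estimates after *Sumo2*. *Sae1* measured 55.6, 68.1 and 70.6 FPKM across the Ctrl samples against 47.0, 46.5 and 61.4 FPKM across the cKO samples. Ctrl 1 lay below cKO 3, so the groups overlapped (log2 fold change -0.33, SE 0.142, 95% interval -0.66 to 0.01, adjusted p = 0.322). *Uba2*, the catalytic subunit, measured 36.1, 42.9 and 36.9 FPKM across the Ctrl samples against 30.5, 30.8 and 35.6 FPKM across the cKO samples. Its groups did not overlap, by a margin of under 1 FPKM, and it did not pass (log2 fold change -0.25, SE 0.103, unadjusted p = 0.0442, adjusted p = 0.304 by limma). The ratio of *Sae1* to *Uba2* FPKM was 1.68 ± 0.203 in Ctrl and 1.59 ± 0.116 in cKO. *Rwdd3*, which encodes the E2-binding protein RSUME, averaged 1.46 FPKM over Ctrl and 1.27 FPKM over cKO (adjusted p = 0.663).

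The ligase genes showed small differences in both directions. *Pias1* measured 11.6, 11.9 and 9.27 FPKM across the Ctrl samples against 10.9, 10.1 and 8.44 FPKM across the cKO samples (log2 fold change -0.14, SE 0.130, adjusted p = 0.626). *Pias2* measured 18.3, 21.6 and 20.5 FPKM across the Ctrl samples against 19.97, 20.45 and 19.21 FPKM across the cKO samples (log2 fold change -0.02, SE 0.0873, adjusted p = 0.940). In both genes the groups overlapped. Of 8 other ligase genes reported, 0 passed the adjusted threshold, 2 were lower and 1 higher at an unadjusted p under 0.05, against 9.31% and 6.60% of all tested genes. Groups did not overlap in 3 with lower values in cKO (*Topors*, *Nsmce2* and *Zfp451*) and 1 with higher values (*Zmiz1*). Over all tested genes these shares were 12.8% and 10.3%. *Topors*, a RING protein that can ligate SUMO and ubiquitin, averaged 26.8 ± 1.96 FPKM over Ctrl and 22.2 ± 0.823 FPKM over cKO (log2 fold change -0.26, SE 0.0840, adjusted p = 0.221). *Nsmce2*, the ligase subunit of the SMC5/6 complex, was at 13.6 ± 1.16 and 11.2 ± 0.522 FPKM (log2 fold change -0.25, SE 0.0909, adjusted p = 0.262). *Zmiz1*, a PIAS-like co-regulator of transcription, was at 4.05 ± 0.725 and 5.53 ± 0.497 FPKM (log2 fold change 0.38, SE 0.131, adjusted p = 0.245). The nuclear pore ligase gene *Ranbp2* was at 22.8 ± 3.48 and 19.1 ± 3.36 FPKM, with overlap. *Pias3*, *Pias4*, *Zmiz2* and *Zfp451* had log2 fold changes of 0.20, -0.04, 0.04 and -0.08, and only *Zfp451* of these had groups without overlap, lower in cKO.

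Both SENP members had estimates near 0 and groups that overlapped. *Senp1* measured 5.63, 5.50 and 5.43 FPKM across the Ctrl samples against 5.50, 5.31 and 5.02 FPKM across the cKO samples (log2 fold change -0.06, SE 0.0822, adjusted p = 0.774). *Senp2* measured 9.07, 8.91 and 9.95 FPKM across the Ctrl samples against 8.69, 9.39 and 9.67 FPKM across the cKO samples (log2 fold change -0.01, SE 0.0857, adjusted p = 0.973). Of 7 other protease genes, 0 passed, against 0% of all tested genes. At an unadjusted p under 0.05, 1 was lower and 0 higher, against 9.31% and 6.60%. Groups did not overlap in 1 with lower and 2 with higher values in cKO, against 12.8% and 10.3%. The smallest adjusted p of the pathway genes reported belonged to *Senp3*, a nucleolar SUMO2/3 protease involved in ribosome assembly. *Senp3* measured 34.8, 37.7 and 34.3 FPKM across the Ctrl samples against 26.8, 28.5 and 29.2 FPKM across the cKO samples. Its groups did not overlap (log2 fold change -0.33, SE 0.0795, 95% interval -0.51 to -0.14), and the adjusted p was 0.149 by limma. *Senp6* and *Senp7*, which trim SUMO2/3 chains, lay higher in every cKO than in every Ctrl sample. *Senp6* was at 23.2 ± 1.23 and 26.4 ± 0.828 FPKM (adjusted p = 0.318) and *Senp7* at 3.05 ± 0.166 and 3.60 ± 0.331 FPKM (adjusted p = 0.427). *Senp5*, *Desi1*, *Desi2* and *Uspl1* had log2 fold changes of 0.10, -0.07, 0.06 and -0.17, all with overlapping groups.

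Counted together, the 18 further pathway genes reported were split about evenly. All 18 were tested, 0 passed the adjusted threshold in either direction, 10 had estimates below 0 and 8 above, and the median log2 fold change was -0.06. At an unadjusted p under 0.05, 3 were lower and 1 higher, against 9.31% and 6.60% of all tested genes, and in the voom fit 0 passed, against 0.494%. In 4 the groups did not overlap with lower values in cKO, in 3 with higher values, and in 11 they overlapped, with the backgrounds of 12.8% and 10.3% given above. The SUMO-targeted ubiquitin ligase genes *Rnf4* and *Rnf111*, whose products tag SUMO-modified proteins for breakdown, had log2 fold changes of -0.16 and 0.05.

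**Figure D4:**
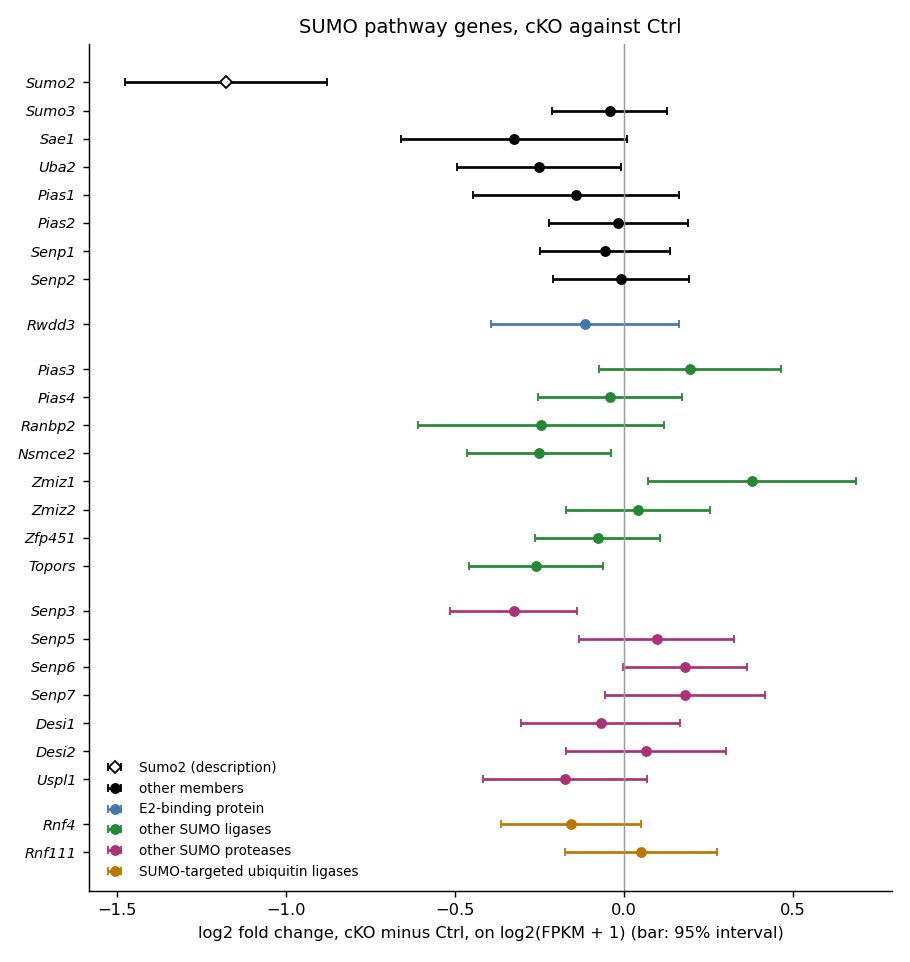
Log2 fold change, cKO minus Ctrl (x axis), with 95% intervals, for the 8 members and 18 further pathway genes grouped by role. *Sumo2* as counted (open symbol, a description) stands at -1.18, while the other 25 lie between -0.33 and 0.38. With the reads of *Gm10241* added, *Sumo2* was at -0.37 (not drawn), just below the lowest of the 25.

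Targets and sister systems were described with the same fit. Of 7 genes for SUMO substrates or SUMO-binding proteins, 6 were tested, *Sp100* being below the filter. Of the 6, 0 passed, against 0% of all tested genes, and 0 in the voom fit, against 0.494%. At an unadjusted p under 0.05, 0 were lower and 0 higher, against 9.31% and 6.60%. All 6 had overlapping groups, whereas 12.8% of all tested genes were lower and 10.3% higher without overlap. *Rangap1*, a classical SUMO target, averaged 23.9 FPKM over Ctrl and 23.0 FPKM over cKO, and the proliferation clamp gene *Pcna*, with the lowest estimate of the list, was at 109.3 and 95.4 FPKM (log2 fold change -0.22, SE 0.172, adjusted p = 0.567). Of 12 genes of the NEDD8 and UFM1 pathways, which work by like cascades, 0 passed in either fit, with the same backgrounds. At an unadjusted p under 0.05, 1 was lower and 0 higher, against 9.31% and 6.60%. In 2, *Nae1* and *Senp8*, the groups did not overlap, both lower in cKO, against 12.8%. Estimates lay below 0 in 6 genes and above in 6, with a median of -0.01. *Nae1*, a subunit of the NEDD8 E1, was lowest, averaging 12.2 ± 2.74 FPKM over Ctrl and 9.03 ± 0.312 FPKM over cKO (adjusted p = 0.282), and Ctrl 2 at 15.3 FPKM stood above the other Ctrl samples at 10.9 and 10.3 FPKM.

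The summed level of germ-cell markers did not overlap between the groups and was lower in cKO. The 20 germ-cell markers, among them *Ddx4*, *Dazl* and *Zbtb16*, summed to 250.8, 597.8 and 278.0 FPKM in Ctrl 1, 2 and 3 and to 75.7, 117.2 and 86.6 FPKM in cKO 1, 2 and 3. None was at 0 in all samples, and in 17 of the 19 that were tested the groups did not overlap, lower in cKO, against 12.8% of all tested genes. By limma 0 of the 19 passed the adjusted threshold, against 0% of all tested genes, and 17 were lower at an unadjusted p under 0.05, against 9.31%. In the voom fit 5 passed, all lower, against 0.494% of all tested genes in either direction. Their part in the differences of *Sumo2*, *Gm10241* and the other SUMO genes was not tested. Of the somatic lists, the summed Leydig-cell markers were 666 to 864 FPKM in Ctrl and 906 to 1009 in cKO, and the endothelial markers 56.0 to 64.9 and 73.9 to 80.2. The peritubular myoid sum was 521 to 533 and 328 to 511, and the Sertoli-cell and macrophage sums overlapped between the groups. Such sums rest mostly on the most abundant markers. Groups did not overlap in 3 of 15 tested Sertoli-cell markers with lower and 3 with higher values in cKO. These counts were 2 and 1 of 6 myoid, 0 and 4 of 9 Leydig-cell, 0 and 3 of 7 endothelial and 0 and 0 of 10 macrophage markers. Over all tested genes the shares were 12.8% and 10.3%.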

How the data were processed

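Whole testes of 5 dpp Ctrl and cKO mice (n = 3 each) were profiled by RNA-seq of poly-T purified RNA. Per the study's methods and the labels, the authors aligned 150 bp paired-end reads with HISAT2 (version 2.0.5) to mm10, counted reads per gene with featureCounts and deposited FPKM values from gene length and read count. The annotation release, the handling of reads with several alignments and any use of strand are not given in the sources used here.

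In all 6 columns 100% of the FPKM values were whole multiples of 1 read (within 0.01 of a whole number), so reads per gene were recovered. The deposited values already held a median-of-ratios scaling between libraries. At this depth 3 reads of a 1 kb gene correspond to 0.158 to 0.194 FPKM. Such a floor covers counting error only. The methods call the samples of a group biological replicates without naming litters. The p-values set the difference between the groups against the spread between samples of a group, moderated across genes.

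The 16206 genes averaging 0.5 FPKM or more across all samples were fitted as log2(FPKM + 1) with limma 3.58.1 in R 4.3.3 (moderated test with a mean-variance trend, two-sided), with Benjamini-Hochberg adjustment over all of them at 0.05. The fit was run on simulated data with planted changes larger than those of the tested SUMO genes. That run therefore does not show how well changes of their size would be found. Fold changes on this scale understate changes of low genes. The members and lists were chosen with earlier results of these data known. Named genes were the 8 members, every gene of the pathway lists that a result concerns, the 5 protein-coding genes (mean of at least 10 FPKM) nearest to *Sumo2* in pattern, protein-coding genes within 100 kb, genes sharing 50-base stretches with *Sumo2*, and *Srsf1*. *Yeats2* was added as the host of *Gm10241*. A few genes that this rule takes in are not reported here, and counts over the lists leave them out. Stretches were searched in the GENCODE M21 transcripts on both strands, and *Samd8*, which shares 23 on its other strand, and the microRNA genes *Mir684-1* and *Mir684-2* were not described further. Alternatives were another pseudocount, filter, scaling or unit, protein-coding genes alone, no trend, limma's voom on the recovered reads, a replicate block and leaving out each sample. Adding the reads of *Gm10241* to *Sumo2*, in the fit and in the ranking by pattern, was chosen after seeing the data.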

Additional observations from a re-analysis of the deposited data

How the results depend on the processing

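The log2 fold change of *Sumo2* kept its direction in the 16 alternatives that left its reads as counted, between -1.27 and -1.05. Leaving out 1 sample at a time gave the same span, with -1.05 without cKO replicate 2 and -1.27 without cKO replicate 1. Adding the reads of *Gm10241* to *Sumo2*, chosen after the data were seen, gave -0.37 (SE 0.0867). That change follows from the construction, since the copy's reads were higher in the samples where those of *Sumo2* were lower. The counts of other members and of other pathway genes past the adjusted threshold were 0 in each direction under every alternative, although among all tested genes 58 passed lower and 22 higher in the voom fit, 84 and 14 with the replicate block, 176 and 37 when protein-coding genes alone were fitted, 15 and 3 without Ctrl replicate 2, 2 and 3 without Ctrl replicate 3, 1 and 4 on the TPM scale, 0 and 1 without the trend, and 0 in the fit reported. The smallest adjusted p of any of these 25 genes was 0.101, for *Senp3* among protein-coding genes alone. Of 400 single-gene values under alternatives, 392 kept their direction and 8 changed sign, in 5 genes with estimates near 0. *Senp2* was 0.0115 under quantile normalization and -0.0377 to 0.0360 when 1 sample was left out. In the same leave-out fits *Pias2* ran from -0.0812 to 0.0329, *Pias4* from -0.0872 to 0.0253, *Rnf111* from -0.00995 to 0.105 and *Zmiz2* from -0.0205 to 0.0908, and the cause was not tested. Same-numbered samples deviated together with correlations of only 0.0663, 0.0162 and 0.0882, so the numbers were not taken to pair the samples. With the replicate block, *Sumo2* was at -1.18 and no call among the members or pathway genes changed. With the reads of *Gm10241* added, 3333 genes were nearer to *Sumo2* in pattern than *Srsf1*, which was the nearest to *Sumo2* as counted. With 3 samples a group, a gene that missed the threshold was not shown to be unchanged.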
